A study of Mus musculus with 4 samples.

Results

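Neat1, Malat1, Meg3, Pvt1, Kcnq1ot1, Gm42418 and Gm26802 are transcripts annotated as noncoding, and they were followed here through the cells of mouse hindlimb muscle with and without the antioxidant enzyme gene Sod1. They were taken by gene symbol, 7 of the 32285 genes in the count matrices, and all 7 were found. The set was put together with earlier results of these data known, so the levels and genotype differences given here are descriptions, with no test. The 4 libraries came from S100GFP-tg mice, called WT here, and from S100GFP-tg Sod1-/- mice, called Sod1KO, in each case 4 males of 2 months pooled. All animals carried a GFP reporter under the S100B promoter, which marks Schwann cells but is not restricted to them. Tibialis anterior and gastrocnemius were digested to single cells, sorted into GFP+ and GFP- fractions, and sequenced with a droplet kit that captures RNA at A-rich 3′ stretches. Each combination of genotype and sort is 1 library, so a difference between genotypes cannot be told apart from a difference between libraries, and the 95% intervals given below cover counting error only.

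Long noncoding RNAs of the nucleus act where they are made. Neat1 is the scaffold of paraspeckles, bodies that hold RNA-binding proteins and grow in many kinds of cell stress, and Malat1 is an abundant RNA of nuclear speckles, where splicing factors gather. Meg3 and Kcnq1ot1 are imprinted RNAs: Meg3 is transcribed from the maternal copy of the Dlk1-Dio3 cluster, and Kcnq1ot1 runs antisense to Kcnq1 on the paternal copy and silences neighbours such as the cell cycle inhibitor Cdkn1c. Pvt1 lies next to the growth regulator Myc. Gm42418 is a predicted gene that overlaps sequence of the ribosomal RNA repeat, so UMIs assigned to it may come from ribosomal RNA, and Gm26802 is a predicted noncoding gene with no role given here.

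In the RefSeq annotation of GRCm38.p6, the build that corresponds to the mm10 named for these files, Malat1 spans chr19:5795690-5802672 and Neat1 spans chr19:5824708-5845480, 22.0 kb apart. Meg3 lies at chr12:109540996-109571729, Pvt1 at chr15:62037986-62260215, Kcnq1ot1 at chr7:143213111-143296547 inside Kcnq1, and Gm26802 at chr7:19298260-19300793. Genome-encoded runs of A are shown because this kit primes on A-rich RNA, and reads from such a run count toward the gene whether or not the transcript has a poly(A) tail. The longest run in the longest GENCODE vM39 transcript of Malat1 and of Kcnq1ot1, in capitals with the bases around it, reads as follows.
Malat1: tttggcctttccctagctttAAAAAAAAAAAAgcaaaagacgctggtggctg
Kcnq1ot1: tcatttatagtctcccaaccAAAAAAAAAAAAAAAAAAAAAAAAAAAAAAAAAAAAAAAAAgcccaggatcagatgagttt

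The Malat1 run of 12 A stands at bases 7576 to 7587 of a transcript of 7886 bases, in the stretch just upstream of the cleavage that releases mascRNA, a small transfer-RNA-like product. Kcnq1ot1, whose transcript of 93092 bases is unspliced, held 10 runs of at least 10 A, the longest of 41, or 0.11 runs per kb, the same as over all lncRNA transcripts (0.11). Neat1, Pvt1 and Gm26802 held none of at least 10, with longest runs of 7, 9 and 6. Such a run was present in 8.9% of all annotated lncRNA transcripts and in 15.9% of protein-coding ones. Which of these sites gave the UMIs was not tested, since the matrices hold counts per gene.

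Promoters were read for stress-response motifs because the comparison is the loss of an antioxidant enzyme. RefSeq windows from 250 bases before to 50 bases after a start were found for Malat1, Meg3, Kcnq1ot1 and Gm26802, 4 of the 7 members (5 windows). They were searched on both strands for the CCAAT box, for the start-site element TATAAA, for TGACNNNGC (the core of the antioxidant response element) and for ACGTG (the core of the hypoxia response element), of which the last 2 can overlap. The Kcnq1ot1 window, the 1 with the antioxidant core, is shown with its CCAAT boxes in capitals, and the Malat1 window, which has neither, is shown beside it.
Kcnq1ot1, chr7:143296498-143296797, minus strand: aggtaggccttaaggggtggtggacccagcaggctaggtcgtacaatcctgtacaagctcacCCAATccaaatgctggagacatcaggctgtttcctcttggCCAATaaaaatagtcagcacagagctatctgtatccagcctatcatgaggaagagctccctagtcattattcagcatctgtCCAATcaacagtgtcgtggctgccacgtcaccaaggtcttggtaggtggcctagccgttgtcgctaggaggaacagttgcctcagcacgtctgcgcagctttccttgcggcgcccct
Malat1, chr19:5802623-5802922, minus strand: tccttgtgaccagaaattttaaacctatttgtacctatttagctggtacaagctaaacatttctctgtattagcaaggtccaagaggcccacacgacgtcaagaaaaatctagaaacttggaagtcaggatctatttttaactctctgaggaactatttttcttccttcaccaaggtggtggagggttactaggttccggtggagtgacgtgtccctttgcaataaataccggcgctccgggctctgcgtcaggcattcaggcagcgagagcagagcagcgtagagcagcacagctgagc

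The 3 CCAAT boxes of Kcnq1ot1 begin 187, 147 and 66 bases before the start. At least 1 CCAAT was found in 37.4% of all 32851 windows, and 3 or more in 3.37%. The first Meg3 start had 1, and Malat1, the second Meg3 start and Gm26802 had none in these windows. TGACNNNGC was found once, in Kcnq1ot1 (12.4% of all windows hold it). ACGTG was found at 2 places in Kcnq1ot1 and 1 in Malat1 (19.6% of windows), and TATAAA was found in Gm26802 and at the first Meg3 start (13.6% of windows).

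The libraries held 4557 (WT GFP+), 5925 (Sod1KO GFP+), 1638 (WT GFP-) and 5143 (Sod1KO GFP-) cells after filters, with median depths of 12288, 12951, 8023.5 and 14658 UMIs and a median mitochondrial share of 3.4% to 3.52%. Library pairs shared 1 to 13 cell barcodes. Sod1 itself was counted at 91.1 UMIs per 1000000 (CPM) in WT and 98.3 in Sod1KO for the GFP+ sort, and at 122.9 and 113.2 for the GFP- sort. The counts therefore did not separate the genotypes at Sod1. Which part of the gene was deleted was not used here, and 3′ UMIs outside it check nothing, so "Sod1KO" means the library labelled so throughout. Cells were grouped without using the members, and clusters were named only where marker genes allowed: myelinating Schwann cell-like (mSC-like), terminal Schwann cell-like (tSC-like), tenocyte-like, mesenchymal-like, mural-like, endothelial-like, macrophage-like and a few smaller classes. All 10 mSC markers passed 20 CPM in mSC-like cells of both genotypes, and 7 of 10 tSC markers in WT and 9 of 10 in Sod1KO tSC-like cells did. In tSC-like cells 5 of 10 mSC markers in WT and 8 of 10 in Sod1KO passed it too. The 10 mSC markers summed to 1905 and 1814 CPM there, against 49098 and 43948 in mSC-like cells. Of 10 tSC markers, 1 in WT and 2 in Sod1KO passed in mSC-like cells. None of 8 macrophage and 7 myofibre markers passed in either Schwann class. Clusters were named from these lists with the same 20 CPM, so a class passing its own markers is no separate check. The part of cells left unnamed was 25.8% and 25.9% in the GFP+ libraries but 57.9% and 35.1% in the WT and Sod1KO GFP- libraries, so GFP- totals compare unlike mixtures.

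Together the 7 RNAs made up 4.83% (WT) and 6.0% (Sod1KO) of all UMIs of the GFP+ sort, and 4.81% (WT) and 6.47% (Sod1KO) of the GFP- sort. Gm42418 and Malat1 carried most of that, and they differed in opposite directions between the genotypes.

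**Figure D1:**
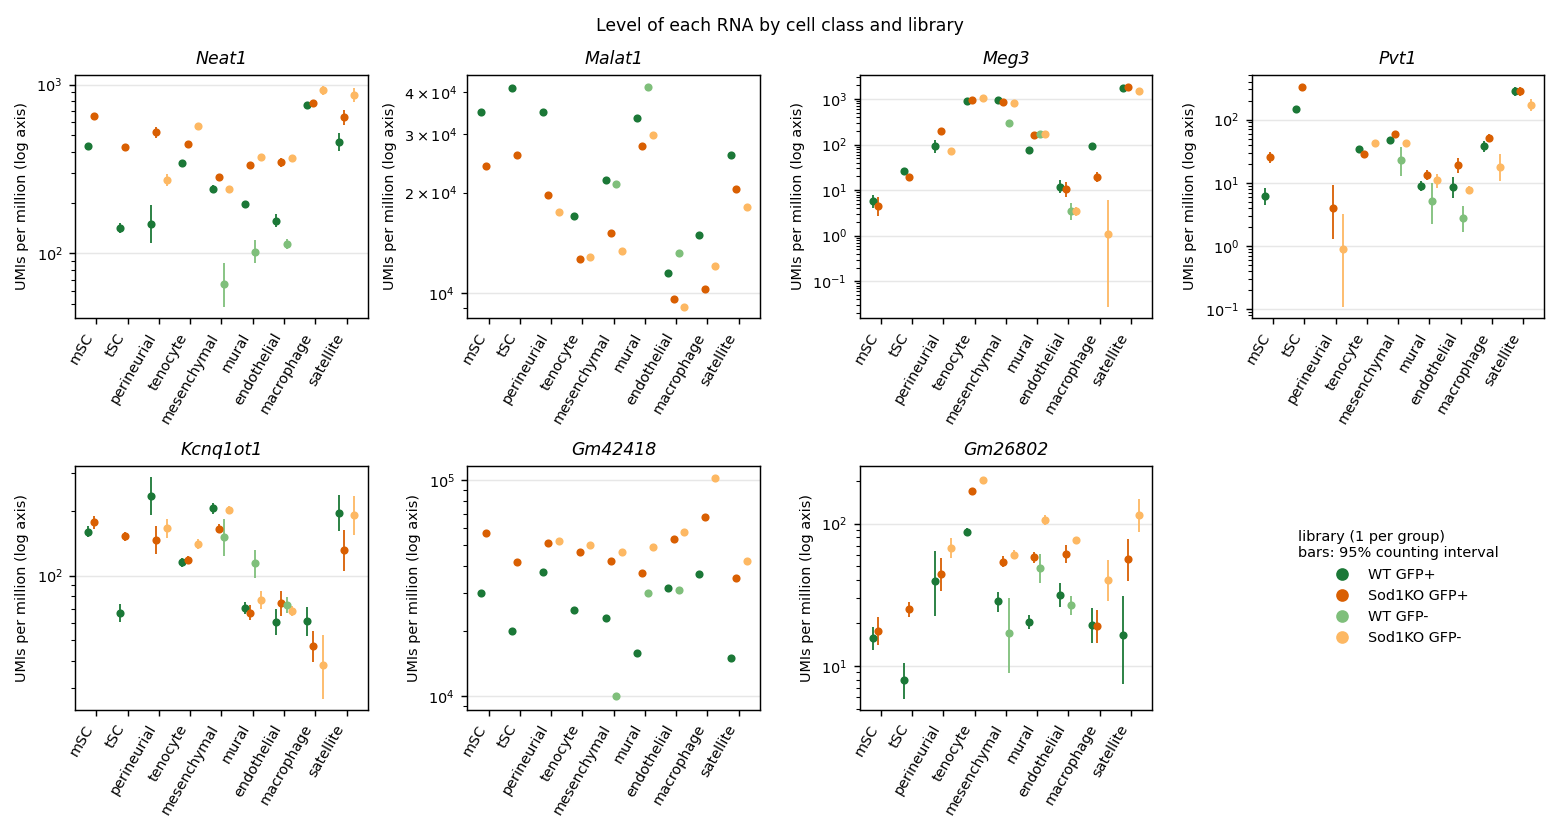
Level of each RNA (CPM, log axis) in each class of at least 30 cells and each library, 1 panel per RNA, with bars for the 95% counting interval. Meg3 lies between 1.06 (Sod1KO GFP- macrophage-like cells, from 1 UMI) and 1859 (Sod1KO GFP+ satellite-like cells), Malat1 between 9111 and 41525, and Gm42418 between 9952 (WT GFP- mesenchymal-like, 38 cells) and 103256 (Sod1KO GFP- macrophage-like, 76 cells). Pvt1 in WT GFP+ perineurial-like cells is at 0 and not drawn.

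The RNAs marked different cells. Neat1 was highest in macrophage-like cells, at 754.6 CPM in WT GFP+ and 781.2 in Sod1KO GFP+, and lowest in tSC-like cells of WT (141.8) but in mesenchymal-like cells of Sod1KO (282.3). The top of that order was thus the same in both libraries and the bottom was not. In WT, the endothelial-like, perineurial-like and tSC-like levels of Neat1 overlapped their neighbours in the order.

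Malat1 in WT GFP+ was highest in tSC-like cells (41281 CPM), with mSC-like (34969) and mural-like cells (33416) also high, and lowest in endothelial-like cells (11503). In Sod1KO GFP+ the first places were mural-like (27666) and tSC-like (25904), and endothelial-like cells were again lowest (9629). Endothelial-like cells of the GFP- sort were similarly low, at 13207 in WT and 9111 in Sod1KO, whereas GFP- mural-like cells held 41525 and 29748. The red-cell lineage, which sheds its nucleus, had the lowest level among classes of at least 10 cells in a library, 440.3 CPM in 17 erythroid-like cells of Sod1KO GFP-.

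Meg3 separated connective tissue and satellite cells from most Schwann cells. Satellite-like cells, the muscle stem cells, held 1759 CPM in WT GFP+ and 1859 in Sod1KO GFP+, tenocyte-like cells 908.7 and 951.9, and mesenchymal-like cells 941.6 and 860.3. mSC-like cells held 5.75 and 4.53 CPM, or 41 and 20 UMIs over the whole class, and tSC-like cells 26.3 and 19.7. The tSC-like class was uneven. Its small cluster 33 held 256.4 and 245.1 CPM, from 60 of the 162 WT and 69 of the 215 Sod1KO UMIs. Cluster 30 held 168.5 and 71.4 CPM, from 8 and 33 UMIs. In WT the highest class stood 306.1-fold above the lowest, and in Sod1KO 410.2-fold.

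Among the named GFP+ classes, Pvt1 was highest in tSC-like and satellite-like cells. It stood at 147.7 CPM in WT and 333.6 in Sod1KO tSC-like cells and at 282.0 and 278.8 in satellite-like cells. The tSC-like class was uneven: its small cluster 33 (27 WT and 32 Sod1KO cells) held 8.55 and 17.8 CPM, from 2 and 5 UMIs. mSC-like cells held 6.17 and 25.2. Perineurial-like cells, which form the sheath around nerve bundles, held no UMI in WT and 3.95 CPM in Sod1KO. The satellite-like and tSC-like levels overlapped in Sod1KO, where tSC-like came first, and did not in WT, where satellite-like came first.

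Kcnq1ot1 was spread over all classes of the GFP+ sort: its highest class stood 3.87-fold above its lowest in WT GFP+ and 3.76-fold in Sod1KO GFP+. Perineurial-like (235.7 CPM) and mesenchymal-like cells (205.6) led in WT, and mSC-like (177.0) and mesenchymal-like cells (165.6) in Sod1KO. In each library 6 pairs of neighbours in the order overlapped. Gm26802 was highest in tenocyte-like cells, at 87.7 CPM in WT and 169.1 in Sod1KO, and low in Schwann cells, at 15.7 and 17.7 in mSC-like and 7.96 and 24.9 in tSC-like cells.

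Gm42418 was highest in perineurial-like (37532 CPM) and macrophage-like cells (36976) of WT GFP+ and in macrophage-like cells (68002) of Sod1KO GFP+, and lowest in satellite-like cells of both. The spread over classes was 2.51-fold in WT and 1.93-fold in Sod1KO.

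Over all GFP+ cells, Neat1 was 266.8 CPM in WT and 419.7 in Sod1KO (log2 ratio of Sod1KO to WT 0.65, 95% interval 0.63 to 0.68). Malat1 was 24761 and 16837 (log2 ratio -0.56), and Gm42418 was 22800 and 42043 (0.88). Pvt1 was 36.0 and 77.7 CPM (1.11), and Gm26802 was 36.9 and 80.0 (1.12). Meg3 and Kcnq1ot1 differed less, at 337.5 and 426.6 CPM (0.34) and at 106.1 and 117.9 (0.15). Members at least 1.5-fold apart with at least 50 UMIs over both libraries were counted: 4 of 7 were higher in Sod1KO (Neat1, Pvt1, Gm42418 and Gm26802) and 0 were lower. By the same limits 8.26% of all 17611 genes were higher and 6.81% were lower, and nothing is read from the difference, because the members were chosen on this contrast. Malat1, with a ratio of 1.47-fold, lay just inside the limit.

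In the GFP- sort, Neat1 was 106.1 CPM in WT and 370.7 in Sod1KO (1.80, 1.74 to 1.87), Meg3 145.1 and 308.0 (1.09), and Pvt1 6.70 and 18.9 (1.5). Kcnq1ot1 was 79.9 and 105.7 (0.40), Gm42418 28716 and 49795 (0.79), Gm26802 41.1 and 105.4 (1.36) and Malat1 19020 and 13963 (-0.45). The directions were those of the GFP+ sort for all 7. Past the limits 5 of 7 were higher and 0 lower, beside 20.3% and 6.8% of all genes. For Meg3 the mixture of cells differed along with the level: tenocyte-like and mesenchymal-like cells, its high classes, numbered 12 and 38 of the 1638 WT cells and 352 and 729 of the 5143 Sod1KO cells. Their part in the Meg3 difference was not tested.

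**Figure D2:**
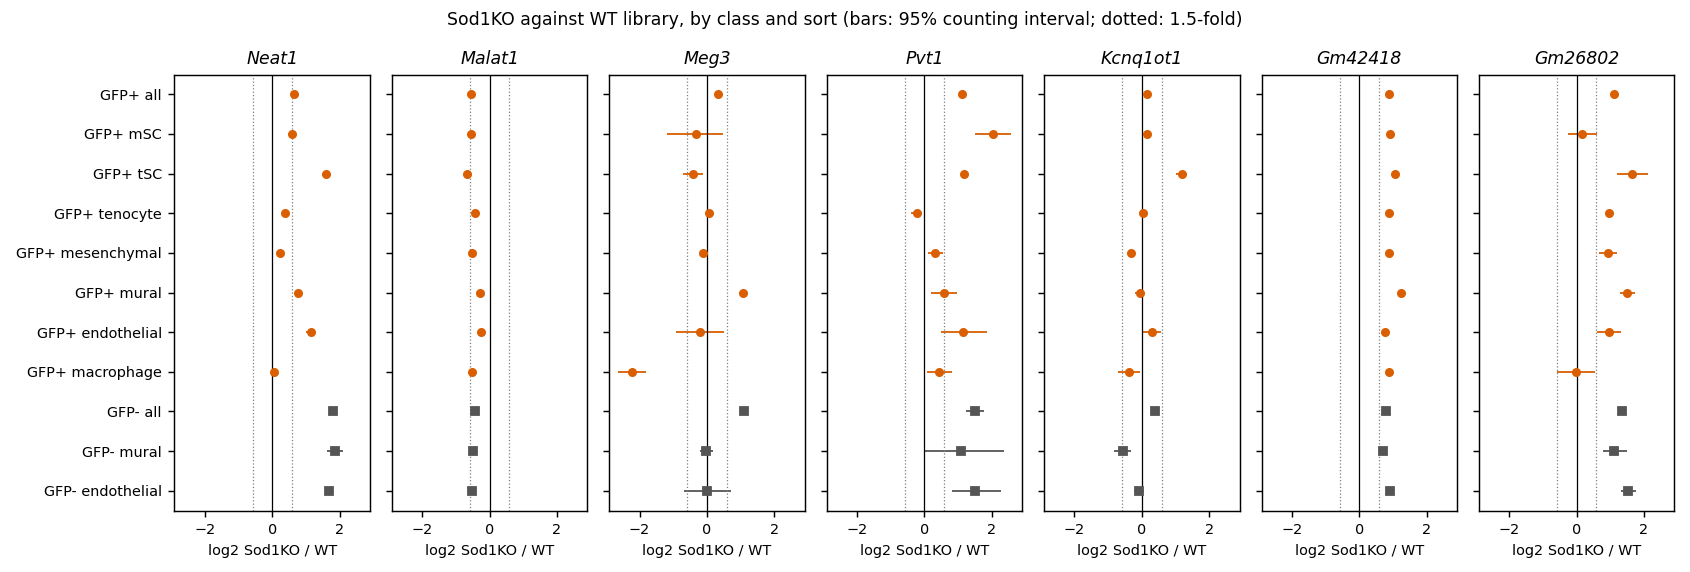
Log2 ratio of Sod1KO to WT for the 7 RNAs in 11 comparisons (all cells and each class of at least 50 cells in both libraries of a sort), with bars for the 95% counting interval and dotted lines at 1.5-fold. Gm42418 lies above 0 and Malat1 below 0 in every class drawn, Neat1 is above 0 in each class with an interval that reaches 0 in macrophage-like cells, and Meg3 and Kcnq1ot1 lie on both sides.

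Within classes, composition over broad cell types is held fixed. The 9 class comparisons, 7 of GFP+ and 2 of GFP- cells, share libraries and are therefore no replicates of one another. Gm42418 was higher in Sod1KO in 9 of 9, with log2 ratios from 0.70 to 1.23, and Malat1 was lower in 9 of 9, from -0.67 to -0.26. Neat1 was higher in 9 of 9, from 0.05 in macrophage-like cells to 1.86 in GFP- mural-like cells. Gm26802 and Pvt1 were each higher in 8 of 9. Meg3 was higher in 2 and Kcnq1ot1 in 4 of 9.

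In mSC-like cells (1079 WT and 658 Sod1KO cells), Neat1 was 430.4 CPM in WT and 651.0 in Sod1KO (0.60, 0.52 to 0.67), Gm42418 was 30164 and 56908 (0.92), and Malat1 was 34969 and 23982 (-0.54). Kcnq1ot1 was 159.8 and 177.0 (0.15), and Gm26802 was 15.7 and 17.7 with an interval across 0 (-0.27 to 0.60). Pvt1 rested on 44 and 111 UMIs (1.51 to 2.57 around its ratio), from 6.17 to 25.2 CPM. After each cell was thinned to 1000 UMIs, Pvt1 was seen in 0.557% (WT) and 1.98% (Sod1KO) of the mSC-like class. In GFP+ endothelial-like cells, another class of low Pvt1 (8.49 and 18.9 CPM), it was seen in 2.57% and 0.84%, from 7 and 2 cells. Before thinning the shares were 2.87% and 8.51% in mSC-like cells (median depths 6238 and 6118 UMIs). They were 6.25% and 10.1% in endothelial-like cells (10462.5 and 9316.5 UMIs). Endothelial-like cells hold some Pvt1 themselves and so give no floor, and whether the mSC-like shares exceed background was not tested. Past the limits 3 of 7 were higher (Neat1, Pvt1, Gm42418) and 0 lower, beside 3.78% and 4.46% of all genes. The median mitochondrial share was 5.03% in WT and 6.14% in Sod1KO mSC-like cells, and its part in these differences was not tested.

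In tSC-like cells 6 of the 7 members passed the limits. Neat1 was 141.8 CPM in 384 WT cells and 425.2 in 886 Sod1KO cells (1.58, 1.48 to 1.69). Pvt1 was 147.7 and 333.6 (1.18, 1.07 to 1.28), and Kcnq1ot1 67.3 and 152.2 (1.18, 1.02 to 1.34). Gm42418 was 19985 and 41798 (1.07), Gm26802 7.96 and 24.9 (1.65, 1.2 to 2.12), and Malat1 41281 and 25904 (-0.67). Past the limits 5 of 7 were higher and 1, Malat1, was lower, beside 9.52% and 13.1% of all genes. Thinned to 1000 UMIs a cell, Neat1 was seen in 11.2% of WT and 28.3% of Sod1KO tSC-like cells, Pvt1 in 15.4% and 26.8%, and Kcnq1ot1 in 6.27% and 13.1%. Unthinned, the same shares were 69.3% and 78.0%, 59.6% and 76.4%, and 29.7% and 46.5%.

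Different tSC-like clusters held most of the 2 libraries, and for Neat1, Pvt1 and Kcnq1ot1 the pooled ratio was larger than the ratio in either of the 2 largest clusters. Cluster 14, led by Unc80, Bche and Slitrk3, held 80.5% of WT and 18.6% of Sod1KO tSC-like cells, and cluster 7, led by Olig1, Ucn2 and Btc, held 9.12% and 67.8%. Kcnq1ot1 was 64.8 CPM in WT and 54.6 in Sod1KO within cluster 14 (-0.25, -0.54 to 0.04) and 142.3 and 171.3 within cluster 7 (0.27, -0.20 to 0.77), so that both intervals reached 0. Pvt1 was 144.3 and 192.7 in cluster 14 (0.42, 0.25 to 0.58) and 299.7 and 357.9 in cluster 7 (0.26, -0.07 to 0.60). Neat1 was 132.5 and 165.0 in cluster 14 (0.32, 0.14 to 0.49) and 247.2 and 481.3 in cluster 7 (0.96, 0.61 to 1.34). For all 3 RNAs the level in cluster 7 was above that in cluster 14 in both genotypes. The small cluster 30, with 13 WT and 88 Sod1KO cells and 10 to 18 WT UMIs of each RNA, had ratios nearer the pooled ones: 1.51 for Neat1 (0.83 to 2.28), 1.24 for Pvt1 (0.56 to 2.01) and 1.09 for Kcnq1ot1 (0.18 to 2.17).

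The other members did not follow this pattern. Malat1 was lower in Sod1KO within both clusters (-0.57 in 14 and -0.87 in 7), and Gm42418 was higher in both (1.14 and 0.64). Gm26802 was 7.14 and 28.5 CPM in cluster 14 (2.00), and in cluster 7 it had 0 UMIs in the 35 WT cells and 18.1 CPM in Sod1KO, at least 0.69 on the log2 scale when the WT library is set to 3 UMIs.

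**Figure D3:**
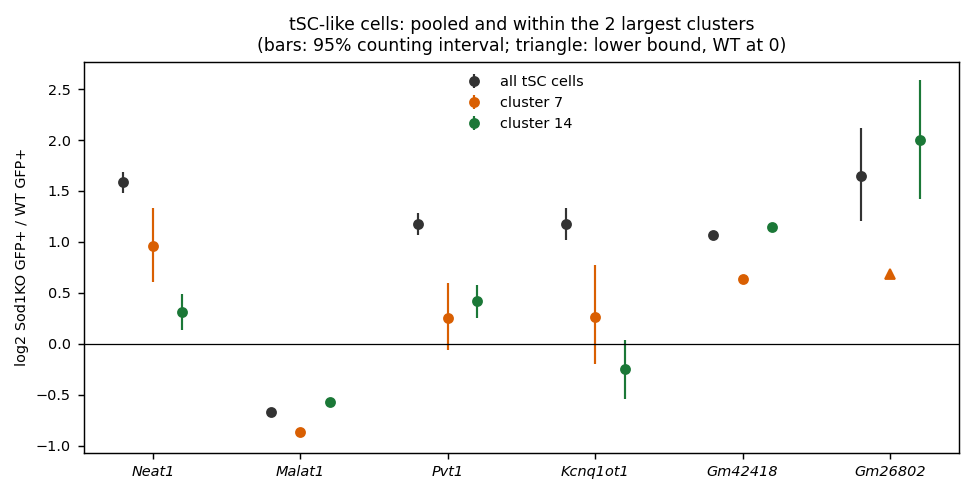
Log2 ratio of Sod1KO to WT for 6 of the RNAs in all tSC-like GFP+ cells and within clusters 7 and 14, with bars for the 95% counting interval and a triangle for a lower bound. The pooled ratio of Kcnq1ot1 is 1.18, and both within-cluster intervals reach 0, while Gm42418 stays above and Malat1 below 0 in each.

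The neighbours of these RNAs differed in the tSC-like clusters too. Cdkn1c, silenced on the Kcnq1ot1-expressing chromosome, was 28.0 CPM in WT and 129.6 in Sod1KO over all tSC-like cells (2.21). It was lower in Sod1KO within cluster 14 (24.3 and 11.5, log2 ratio -1.08) and higher within cluster 7 (127.4 and 180.1, 0.50, 0.01 to 1.04). Myc, beside Pvt1, was lower over all tSC-like cells (95.9 and 62.9, -0.61) and within both clusters (-0.83 and -0.94), where Pvt1 was not lower. Frmd8, a protein-coding neighbour of Malat1 and Neat1, was 23.4 and 54.4 over all (1.22), and its interval reached 0 within each cluster.

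In tenocyte-like cells (505 WT and 1037 Sod1KO), Gm42418 was 25138 and 46714 CPM (0.89) and Gm26802 87.7 and 169.1 (0.95, 0.86 to 1.04). Neat1 was 343.9 and 444.9 (0.37) and Meg3 908.7 and 951.9 (0.07). Pvt1 was 34.1 in WT and 29.1 in Sod1KO (-0.23), but 27.6 and 28.4 in cluster 0, which held 478 of the 505 WT cells (0.04, -0.14 to 0.22), and 428.7 and 98.5 in the 27 and 40 cells of cluster 31 (-2.12). Past the limits 2 of 7 were higher and 0 lower, beside 5.04% and 2.99% of all genes. Myc was lower here too, at 49.2 and 22.5 CPM (-1.13), but its direction varied over classes. It was higher in Sod1KO in mSC-like (0.49, 0.21 to 0.77), GFP+ mural-like (0.47, 0.225 to 0.72) and macrophage-like cells (0.67, -0.09 to 1.47). In endothelial-like cells it was 0.16 in GFP+ and 0.22 in GFP-, in mesenchymal-like cells -0.30, and in GFP- mural-like cells -0.27.

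In mesenchymal-like cells (272 and 684) the same pair passed, with Gm42418 at 22967 and 42336 CPM (0.88) and Gm26802 at 28.4 and 54.2 (0.93). That is 2 of 7 higher and 0 lower, beside 7.53% and 5.15% of all genes. Neat1 was 239.6 and 282.3 (0.24). The largest number of WT cells of this class was in cluster 6 (146 cells, beside 241 of Sod1KO) and the largest number of Sod1KO cells in cluster 12 (324 cells, beside 80 of WT). Within those clusters, Neat1 had log2 ratios of 0.06 in cluster 6, 0.69 in cluster 12 and 0.92 in cluster 11, and Malat1 of -0.67, -0.52 and -0.35.

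In GFP+ mural-like cells (651 and 521), the smooth muscle and pericyte lineage, Gm42418 was 15823 and 37172 CPM (1.23), Gm26802 20.4 and 58.1 (1.51) and Neat1 196.8 and 333.3 (0.76). Meg3 was 76.5 and 159.6 (1.06, 0.94 to 1.18). Its imprinted neighbour Rian was 13.6 and 29.8 (1.13), and Dlk1, another, was 1.38 and 6.53 (2.25), from 19 and 57 UMIs. Past the limits 4 of 7 were higher and 0 lower, beside 6.95% and 2.55% of all genes. Pvt1, at 1.49-fold, lay just inside the limit. Meg3 in this class sat in few cells: 21 of the 651 WT and 29 of the 521 Sod1KO cells were enough to hold 50% of its UMIs. Its level was 18.3 and 27.8 CPM in cluster 3 (0.60), 553.7 and 601.5 in cluster 18 (0.12) and 649.0 and 942.0 in cluster 24 (0.54). Clusters 18 and 24 numbered 42 and 55 cells in WT and 49 and 78 in Sod1KO. In GFP- mural-like cells Meg3 was 174.4 and 171.4 (-0.03, -0.22 to 0.17), and Rian was lower in Sod1KO (49.4 and 34.0, -0.54). Over all GFP- cells, where Meg3 was higher, Rian (1.11), Mirg (1.33) and Rtl1 (0.72, -0.095 to 1.65) were higher. Dlk1 was lower there (12.3 and 6.26 CPM, -0.97).

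In GFP+ endothelial-like cells (272 and 238), Neat1 was 156.6 and 346.3 CPM (1.15, 0.99 to 1.30), Gm42418 31834 and 53663 (0.75) and Gm26802 31.6 and 61.4 (0.96). Pvt1 rested on 29 and 56 UMIs (1.15, 0.48 to 1.85). Past the limits 4 of 7 were higher and 0 lower, beside 6.38% and 3.61% of all genes. GFP- endothelial-like cells, sorted separately from the same pools, showed Neat1 at 113.9 and 368.8 CPM (1.70, 1.59 to 1.80), Gm42418 at 31030 and 57962 (0.90), Gm26802 at 26.6 and 76.7 (1.53) and Pvt1 at 2.73 and 7.71 (1.5, 0.81 to 2.26). That Pvt1 ratio was 0.67 with means of per-cell CPM and 0.79 when cells were named one by one by markers. Again 4 of 7 were higher and 0 lower, beside 12.4% and 5.65% of all genes. Thinned to 1000 UMIs, Neat1 was seen in 7.63% of WT and 25.4% of Sod1KO GFP- endothelial-like cells, against 51.0% and 77.3% unthinned.

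In GFP- mural-like cells (96 and 408), Neat1 was 102.6 and 372.8 CPM (1.86, 1.63 to 2.10), Gm42418 30185 and 49146 (0.70), Gm26802 48.7 and 105.8 (1.12) and Pvt1 8 and 64 UMIs (1.09, 0.02 to 2.36). Past the limits 4 of 7 were higher and 0 lower, beside 7.06% and 8.67% of all genes. Malat1 was 41525 and 29748 (-0.48). The median mitochondrial share of this class was 3.71% in WT and 7.31% in Sod1KO, and among cells under 5% the Malat1 ratio was 0.03.

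GFP+ macrophage-like cells (134 and 211) showed the smallest difference in Neat1 of the 9 class comparisons, 754.6 and 781.2 CPM (0.05, -0.04 to 0.14). The few macrophage-like cells of the GFP- sort (21 and 76) held 448.6 and 923.0 CPM (1.04, 0.80 to 1.29). Gm42418 was 36976 and 68002 (0.88) and Malat1 14893 and 10305 (-0.53). Meg3 was 92.5 and 19.7 CPM (-2.23), but 238 of its 242 WT UMIs came from 1 cell of 110356 UMIs. Without that cell the WT level was 1.60 CPM, and without the highest cell of Sod1KO, which held 29 of 62 UMIs, it was 10.6. The same WT cell held 47 of the 51 Gm26802 UMIs of its class. Past the limits 1 of 7 was higher and 1, Meg3, was lower, beside 6.18% and 5.49% of all genes.

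Clusters without a name carried members too. Cluster 8, led by Lgals7, Tenm2 and Slc6a13 and with markers of both mSC and perineurial cells, held Pvt1 at 6.24 CPM in 304 WT cells and 74.5 in 307 Sod1KO cells (3.58), the highest Pvt1 ratio of the 21 GFP+ clusters with at least 30 cells in each library. Neat1 was 231.1 and 505.5 there (1.13). Over such clusters Neat1 was higher in Sod1KO in 22 of 23 GFP+ and 8 of 10 GFP- clusters, Gm42418 in 23 of 24 and 9 of 10, and Malat1 in 2 of 24 and 1 of 10. Cluster 9, shallow cells with a median of 1348 UMIs led by the fat genes Cfd, Retn and Adipoq, stood apart in all libraries together, with Malat1 at 1819 CPM and Gm42418 at 96172.

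The levels of several members followed how much of a cluster's RNA came from long genes, a share that unspliced nuclear RNA raises where introns are counted. Over the 37 clusters the share of UMIs in genes over 100 kb correlated with the log2 level of Neat1 at Pearson r = 0.72 (Spearman rho = 0.63), Malat1 at 0.67 (0.77), Kcnq1ot1 at 0.69 (0.57) and Pvt1 at 0.57 (0.43). Pvt1, at 222.2 kb, is itself among these long genes, so its own UMIs are part of the share. Meg3 (0.05, -0.03) and Gm42418 (0.38, 0.40) followed the share less. These values describe clusters that share 4 libraries and their depth, and no p is given. The median mitochondrial share correlated with Malat1 at 0.62 (0.56) and with Neat1 at 0.41 (0.43).

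**Figure D4:**
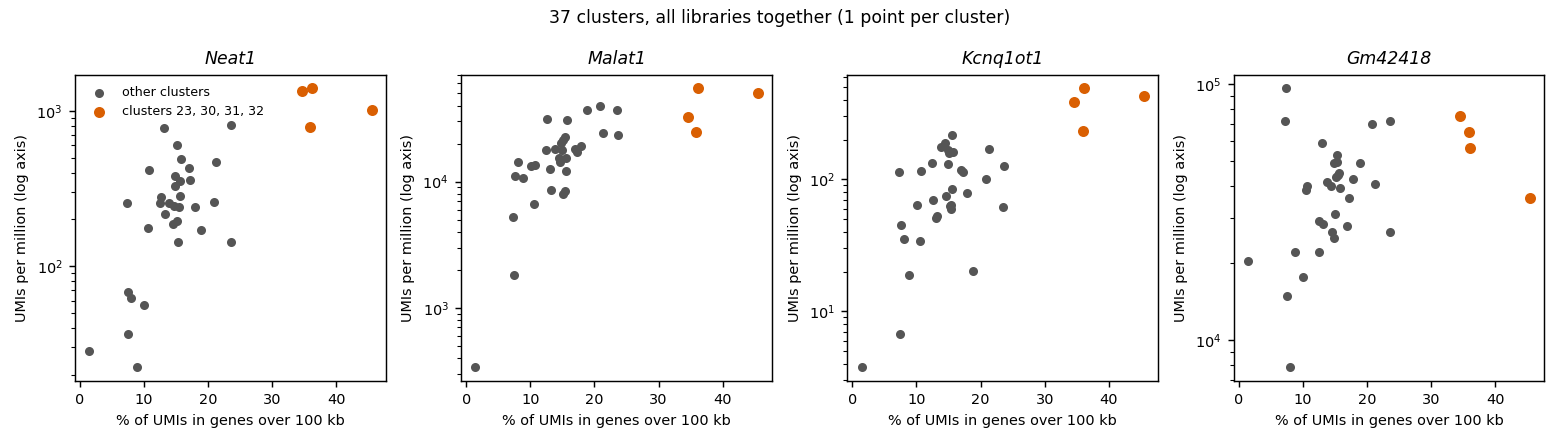
Level of 4 RNAs (CPM, log axis) against the share of UMIs in genes over 100 kb, 1 point per cluster, all libraries together. The 4 clusters above 30% (23, 30, 31 and 32) lie toward the top for Neat1, Malat1 and Kcnq1ot1, and Gm42418 shows a weaker relation (r = 0.38).

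Clusters 30, 31 and 32 could be set beside the rest of their class within a library, and cluster 23, unnamed, could not. Cluster 31, 36.2% of whose UMIs fell in long genes, held Neat1 at 2099 CPM in WT GFP+ against 315.2 in the other tenocyte-like cells (log2 ratio 2.74), Malat1 at 65386 against 16201 (2.01), Pvt1 at 429 against 27.6 (3.96) and Kcnq1ot1 at 600.2 against 107.1 (2.49). Gm42418 was 20430 against 25215 there (-0.30), but 96576 against 48421 in Sod1KO GFP- (1.00). In Sod1KO GFP+ the Neat1 and Malat1 ratios of this cluster were 1.11 and 2.15. In the tSC-like cluster 30 of Sod1KO GFP+, Neat1 was 1079 against 396.2 CPM (1.45), Malat1 48132 against 24920 (0.95), Pvt1 895.5 against 308.8 (1.54) and Kcnq1ot1 447.8 against 139.1 (1.69). This cluster held 3.39% and 9.93% of tSC-like cells. In the mSC-like cluster 32, Neat1 was higher than in the other mSC-like cells (1.57 in WT and 1.21 in Sod1KO), Malat1 differed little (0.19 and 0.26), and Gm42418 was higher (1.24 and 0.48). Across whole GFP+ classes the long-gene share in WT and Sod1KO was 23.6% and 22.7% in tSC-like, 11.05% and 10.96% in tenocyte-like, 14.66% and 13.92% in mesenchymal-like and 13.11% and 12.46% in macrophage-like cells. It was higher in Sod1KO in mSC-like (15.6% and 17.4%), mural-like (12.89% and 13.63%) and endothelial-like cells (14.43% and 16.47%). In the GFP- sort it was 14.43% and 15.37% in mural-like and 14.39% and 16.62% in endothelial-like cells. Its part in the genotype differences was not tested.

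Depth and mitochondrial share were held within bins. Over class and depth bins of GFP+ cells, Malat1 was lower in 21 of 21 and Gm42418 higher in 21 of 21. Over bins of mitochondrial share they were so in 17 of 18 and 18 of 18. In GFP- cells both held in 6 of 6 depth bins and 7 of 7 mitochondrial bins. Neat1 was higher in 18 of 21 depth bins and 16 of 18 mitochondrial bins of GFP+, and in 6 of 6 and 7 of 7 of GFP-. The largest exception was tenocyte-like cells of 10000 to 20000 UMIs, where Neat1 was 567.7 CPM in 53 WT cells and 223.9 in 311 Sod1KO cells (-1.34), while in those above 20000 UMIs it was 323.8 and 504.2 (0.64). Kcnq1ot1 was higher in 14 of 21 and 10 of 18 bins of GFP+ cells.

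**Figure D5:**
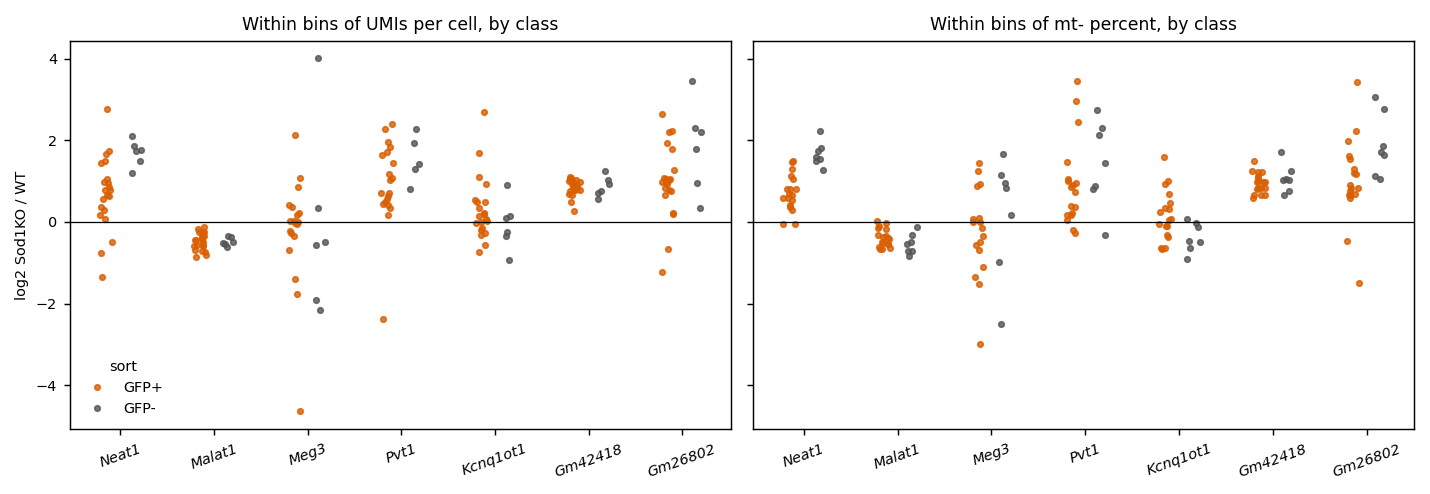
Log2 ratio of Sod1KO to WT in each class within bins of UMIs per cell and of mitochondrial share, 1 point per class and bin with at least 20 cells in each library. Gm42418 points lie above 0 and Malat1 points below 0 apart from 1 mitochondrial bin at 0.03, and Neat1 has 1 point at -1.34.

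Proteins of the bodies that hold Neat1 and Malat1 were counted by the same limits. Over all GFP+ cells, 0 of 12 tested paraspeckle proteins and 0 of 10 nuclear speckle proteins passed 1.5-fold in either direction, with median log2 ratios of 0.05 and -0.23 beside -0.003 over all genes. In tSC-like cells 1 of 12 paraspeckle proteins, the chromatin remodeller Smarca4, was higher (47.8 and 73.7 CPM, 0.63), and none was lower. Of 10 nuclear speckle proteins 1, the splicing factor Srsf5, was lower (285.2 and 185.7, -0.62), and none was higher. Beside them, 9.52% of all genes in tSC-like cells were higher and 13.1% lower, so nothing is read from either gene. Of 25 other long noncoding RNAs tested over all GFP+ cells, 4 were higher (Snhg11, H19, Miat and Rmst, each below 11 CPM), none was lower and the median was 0.08. The counts over all GFP+ cells stand beside the 8.26% of all genes that were higher and 6.81% that were lower. Of 24 tested over all GFP- cells, 10 were higher and none was lower, beside 20.3% and 6.8% of all genes.

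Genes that share ribosomal RNA-like sequence with Gm42418 were described as a list. Lars2, a mitochondrial leucyl-tRNA synthetase gene whose mouse annotation holds such sequence, was 567.3 and 836.3 CPM over GFP+ cells (0.56) and 536.2 and 1026 over GFP- cells (0.94). In the GFP+ sort it passed the limit in mSC-like (0.61), tSC-like (0.75), mural-like (0.86), endothelial-like (0.64) and mesenchymal-like cells. It did not in tenocyte-like and macrophage-like cells. In the GFP- sort it passed in mural-like (1.16) and endothelial-like cells (0.96). AY036118 was 894.7 and 1079 over GFP+ cells (0.27), and Gm26917 20.8 and 24.6 (0.24). In tSC-like cells all 4 genes of the list, Gm42418 included, were past the limit, with AY036118 at 0.69 and Gm26917 at 0.93. Of all genes in this class 9.52% were higher. AY036118 was higher in Sod1KO within cluster 14 (1030 and 1675 CPM, 0.70) but lower within cluster 7 (2210 and 1880, -0.23, -0.35 to -0.11). Lars2 was higher within both (0.79 and 0.64). Reads from one ribosomal RNA-like copy can be assigned to another, so the level of each is uncertain.

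Over 24 class and library units and 7181 genes, the genes whose log2 level followed each member most closely were named. Rian, from the same imprinted cluster, followed Meg3 (Pearson r = 0.97), and Lars2 followed Gm42418 (0.86). Zcchc9 followed Malat1 (0.91), Eda followed Kcnq1ot1 (0.90), Snd1 followed Pvt1 (0.85), Map3k14 followed Neat1 (0.75) and Sgip1 followed Gm26802 (0.72). Among the members, Neat1 and Gm42418 had r = 0.64 (rho = 0.61), and Malat1 and Gm42418 had r = -0.58 (rho = -0.59). The units share libraries and depth, and these are descriptions with no p.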

How the data were processed

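Single-cell counts were taken as deposited: the authors' 10x matrices of UMI counts per gene and barcode, 1 per library, not normalized, with their gene and barcode identifiers. The submitters' processing notes name Cell Ranger 7.1.0, Seurat 4.30 and mm10, while the study's methods name another Cell Ranger release and more than 1 mouse build. For intronic reads and strand in counting, the setting was not given in the sources used here. Barcodes with more than 200 genes and under 10% mitochondrial UMIs were kept (4557, 5925, 1638 and 5143 cells in WT GFP+, Sod1KO GFP+, WT GFP- and Sod1KO GFP-, from 71530002, 89832320, 19989748 and 82236411 UMIs), after removal of doublets by a score over 50 simulated neighbours, at 0.8% per 1000 barcodes. Cells were scaled to 10000 counts, log-transformed and clustered without the members (2000 variable genes, 30 components, 20 neighbours, Leiden resolution 1, 37 clusters).

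A cluster was named from at least 3 markers above 20 CPM and 2-fold over the mean of the other clusters, checked against its top 10 genes. Some naming limits (markers shared by endoneurial and mesenchymal lists, cell-cycle and bone-gene clusters left unnamed) were set after the clusters were seen. UMIs were summed per class and library. CPM have exact Poisson intervals, ratios exact conditional binomial intervals and shares Clopper-Pearson intervals, all at 95%. With 1 library per group no test was possible. Genes at least 1.5-fold apart with 50 or more UMIs over both libraries were counted, and a library at 0 was set to 3 UMIs. The ratio code was tested on simulated data. All 7 members are named, with list genes past the limits, up to 4 others per list and the 3 genes most like each member. Cluster 8 was singled out after its values were seen. Members and gene lists were chosen with earlier results of these data known. Alternatives changed the mitochondrial limit, doublet removal, scaling, per-cell averaging, depth range, ambient RNA, clustering, naming, fold and UMI limits, and 2 (without clusters rich in long genes, and equal weight to classes) were added after seeing the data. Clustering used leidenalg 0.10.2 on igraph 0.11.9 and scikit-learn 1.9.0, statistics scipy 1.17.1 with pandas 2.3.3 and numpy 2.4.6, and plots matplotlib 3.10.9, all under Python 3.11.15, with RefSeq GRCm38.p6 positions and promoters and GENCODE vM39 transcripts.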

Additional observations from a re-analysis of the deposited data

Results flagged for a closer look

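Barcodes with 10% or more mitochondrial UMIs took part in no comparison of the report, only in the alternative without a mitochondrial limit: in the GFP+ sort 726 of WT and 962 of Sod1KO, and in the GFP- sort 381 of WT and 1142 of Sod1KO. Together with the few barcodes dropped for low gene number they had median depths of 2130.5, 2557, 1745 and 4647.5 UMIs, and some members stood at least 1.5-fold above the cells that were kept. In WT GFP+, Neat1 was 524.6 CPM outside and 266.8 inside the filter (log2 ratio 0.98), Malat1 was 42145 and 24761 (0.77), and Kcnq1ot1 was 170.6 and 106.1 (0.69). In Sod1KO GFP+ Malat1 was 34137 and 16837 (1.02), and in Sod1KO GFP- it was 25942 and 13963 (0.89). In WT GFP- Neat1 was 192.9 and 106.1 (0.86). Others stood at least 1.5-fold below the cells kept: in WT GFP- Meg3 (-0.87), Kcnq1ot1 (-0.78) and Gm26802 (-1.62), and in Sod1KO GFP- Meg3 (-1.39) and Gm26802 (-0.96).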

How the results depend on the processing

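No paired analysis was possible because each group is 1 library, and no replicate could be left out. Of the log2 ratios that passed 1.5-fold, 1 reversed: Meg3 in GFP+ macrophage-like cells, -2.23 as reported, was 0.355 in cells of 5000 to 20000 UMIs and 4.88 when cells were named one by one by a marker rule. With a limit of 2-fold the members counted as higher were 2 over all GFP+ cells, 1 in mSC-like, 0 in tenocyte-like, 0 in mesenchymal-like, 2 in GFP+ endothelial-like and 0 in macrophage-like cells, and those lower were 0 in tSC-like cells. In cells of 5000 to 20000 UMIs, 2 members were lower in tSC-like and 4 in tenocyte-like cells and 4 were higher in mesenchymal-like cells. With means of per-cell CPM, 2 were higher and 2 lower in macrophage-like and 1 lower in GFP- endothelial-like cells. In macrophage-like cells 2 were lower both under 5% mitochondrial UMIs and without doublet removal. In GFP- mural-like cells 1 was lower both without a mitochondrial limit and with ambient RNA subtracted, and in GFP- endothelial-like cells 1 was lower when the members took part in clustering. The cause was not tested. The share of all genes past the limits under each altered setting is not given here. These counts therefore show only how far the reported counts moved, and nothing else is read from them.

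Among single ratios, Pvt1 over all GFP+ cells was 1.11 as reported and 0.51 with equal weight to each class, and Kcnq1ot1 0.15 and -0.12. Neat1 in tenocyte-like cells was 0.37 and, at 5000 to 20000 UMIs, -1.42. Pvt1 in mSC-like cells was 2.03, 2.76 with ambient RNA subtracted, 3.16 under 5% mitochondrial UMIs and 3.28 by the marker rule, and in GFP+ endothelial-like cells 1.15, 0.43 when members took part in clustering and 0.41 by the marker rule. Pvt1 in tenocyte-like cells, -0.23, was 0.04 without the clusters rich in long genes, 0.02 under 5% mitochondrial UMIs and 0.03 by the marker rule. Median-of-ratios scaling moved GFP- mural-like cells by 0.11 on the log2 scale and each other comparison by less than 0.1, and changed the sign of 3 ratios near 0. Macrophage-like cells could not be rebuilt when members took part in clustering, and Meg3 was at or under 3 UMIs after ambient subtraction in GFP+ mSC-like, tSC-like and endothelial-like and GFP- endothelial-like cells, so neither was computed. Rare members in small classes rest on few UMIs, and their intervals span several-fold.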
